A study of Mus musculus with 18 samples.

Results

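The genes described here encode 9 members of the interleukin-1 (IL-1) family of cytokines and receptors, namely Il1a, Il1b, Il1rn, Il18, Il18bp, Il33, Il1r1, Il1r2 and Il1rap. They were chosen by name, as the probe sets annotated to exactly 1 gene symbol that is on this list, and they make up 9 of the 17097 genes that the array could name. A total of 15 probe sets read them, with 5 for Il1rap, 3 for Il1rn and 1 for each of the other 7 genes. RNA was measured in bone marrow-derived macrophages of male mice (strain FVB/NJ, aged 10 to 14 weeks) that were knockout (KO) or wild type (WT) for Klf3. The KLF3 protein is a Krüppel-like factor, a DNA-binding protein with zinc fingers, and is known mainly as a repressor. The 6 groups were KO and WT cells after 8 h with lipopolysaccharide (LPS, 100 ng/mL), KO and WT cells after 8 h with its vehicle, phosphate-buffered saline, and KO and WT cells harvested untreated at 0 h. All cells had been grown for 7 to 10 days with medium conditioned by L929 cells, a fibroblast line that secretes the growth factor M-CSF, and that medium was exchanged for regular medium before treatment. Each group held 3 samples, each hybridised to 1 array. The labels do not give the deleted part of Klf3, whether it is missing from every cell, or whether replicates came from separate animals, so each p-value reflects the spread among these samples, which may be technical.

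IL-1 alpha and IL-1 beta, the products of Il1a and Il1b, both bind the receptor IL1R1, which recruits the co-receptor IL1RAP and signals through MyD88 and IRAK kinases to NF-kB. The product of Il1rn, the IL-1 receptor antagonist, occupies IL1R1 without starting a signal, and IL1R2 is a decoy receptor that binds IL-1 but has no signalling domain. IL-18 signals through its own receptor pair and is held back by the secreted IL-18 binding protein, while IL-33 acts as an alarmin of barrier and stromal cells. IL-1 beta and IL-18 are made as inactive precursors that caspase-1 cleaves in inflammasomes, so the RNA measured here does not report the active cytokine. Macrophages that sense LPS through the receptor TLR4 are a textbook source of IL-1 alpha and IL-1 beta.

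Values are log2 of the quantile-normalized intensity, and a difference of 1 on this scale is a factor of 2. A gene's level is not comparable with another gene's, because probe sets differ in brightness. The level of absent signal, set at percentile 95 of the 23 nonspecific controls on each array, lay between 3.71 and 4.53 in the 18 arrays (log2), and between 52.5% and 58.7% of genes lay above it. A Klf3 probe set picked for its loss of signal in KO cells read 2.47 to 4.12 in the 9 KO arrays and 7.01 to 8.20 in the 9 WT arrays, with no overlap. All 8 macrophage markers measured lay above the nonspecific level in all 18 arrays. The WT LPS arrays stood apart in spread: the standard deviation of their genes around the group mean (log2) was 0.277 to 0.336, against 0.165 to 0.266 in the other 15 arrays. Each plate row held arrays of a single condition, so plate row and treatment cannot be told apart.

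The 250 bases before the transcription start of the 3 ligand genes that responded to LPS are shown so that their promoters can be set beside their responses, as RefSeq gives them for GRCm38.p6, 5′ to 3′ on the gene's strand. Capitals mark every match to 5 short motifs searched on both strands, of which the AP-1 motif TGANTCA reads the same on either: the NF-kB site (kB motif), TGANTCA, the interferon-response motif GAAANNGAA, the CACCC box that Krüppel-like factors can bind, and the TATA box TATAAA.

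Il1a, chr2:129309973-129310222, minus strand: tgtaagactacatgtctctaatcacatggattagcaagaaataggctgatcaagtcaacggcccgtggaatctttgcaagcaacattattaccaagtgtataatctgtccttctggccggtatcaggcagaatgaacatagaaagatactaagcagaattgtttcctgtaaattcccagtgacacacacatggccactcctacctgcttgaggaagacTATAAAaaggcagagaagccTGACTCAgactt

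Il1b, chr2:129371140-129371389, minus strand: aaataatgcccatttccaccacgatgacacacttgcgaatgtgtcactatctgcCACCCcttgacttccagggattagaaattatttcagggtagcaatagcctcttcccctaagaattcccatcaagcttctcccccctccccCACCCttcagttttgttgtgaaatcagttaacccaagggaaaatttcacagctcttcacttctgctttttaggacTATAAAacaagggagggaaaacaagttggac

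Il18, chr9:50554450-50554699, plus strand: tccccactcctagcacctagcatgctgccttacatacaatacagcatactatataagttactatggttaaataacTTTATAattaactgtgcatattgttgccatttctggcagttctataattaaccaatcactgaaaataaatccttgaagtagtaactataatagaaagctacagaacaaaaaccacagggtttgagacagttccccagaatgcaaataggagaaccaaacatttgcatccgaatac

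The Il1a window held TATAAA from 32 bases before the start and TGACTCA from 12 bases before it. The Il1b window held TATAAA from 31 bases before the start and CACCC from 196 and 106 bases before it. In the Il18 window the only match was TATAAA on the opposite strand, from 175 bases before the start. Among 32851 such windows of mouse genes, 12.4% held TATAAA, 6.75% the AP-1 motif, 7.25% the kB motif, 7.13% GAAANNGAA and 52% CACCC. No match overlapped another. Of the windows of the 9 genes, only 1 of Il1r1 held a kB match. A match describes the letters in the window and says nothing about binding.

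The first comparison asked how the family responded to LPS in each genotype. Il1a, Il1b, Il1rn, Il18 and Il18bp rose in KO and in WT cells, and Il1r1 and Il1rap rose in WT cells. None of the 9 genes passed the threshold as lower. In KO cells 5 of 9 passed the threshold (limma, Benjamini-Hochberg adjusted p under 0.05 over 17097 genes), against 34.5% of all genes in either direction and 13.9% higher, and in WT cells 7 of 9, against 32.3% in either direction and 13.7% higher. The median log2 difference of the 9 genes was 1.42 in KO cells, where the median over all genes was -0.034, and 1.61 in WT cells, where it was -0.007.

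**Figure D1:**
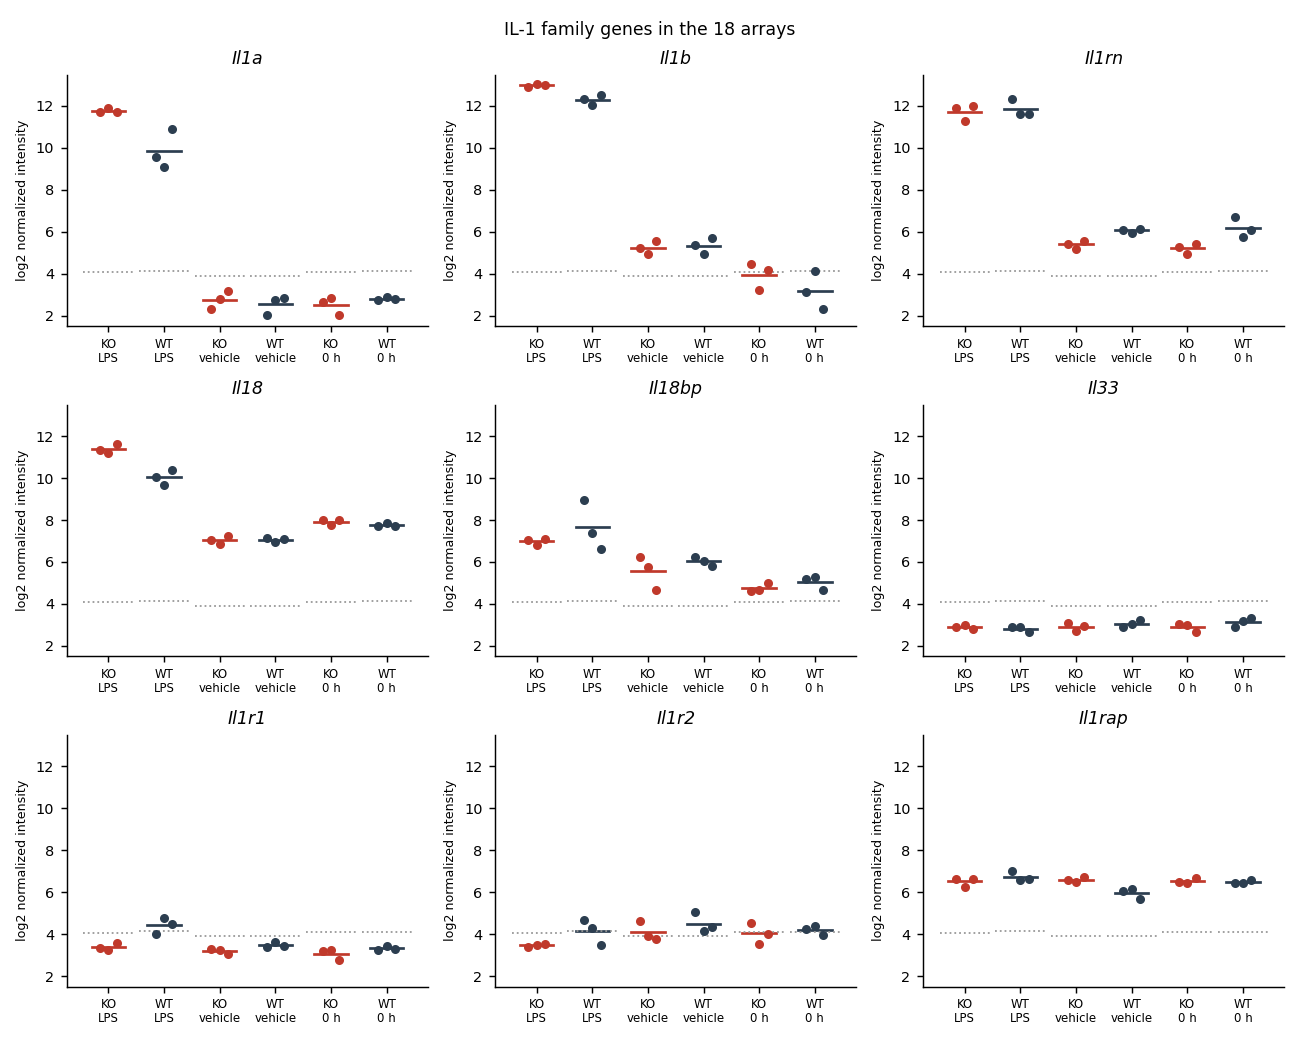
Log2 normalized intensity of the 9 genes (y axis) in the 18 arrays by group (x axis), with KO in red and WT in dark blue. Points are arrays, horizontal bars are group means (n = 3) and dotted lines are the mean nonspecific level of each group. Il1a, Il1b, Il1rn and Il18 are far higher in the 6 LPS arrays than in the other 12, and Il33 lies under the dotted line throughout.

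Among the ligands, Il1a was detected only with LPS. It read 11.73, 11.88 and 11.73 in KO LPS arrays and 9.56, 9.07 and 10.88 in WT LPS arrays (log2). It read 2.31, 2.78 and 3.16 in KO vehicle arrays and 2.04, 2.74 and 2.83 in WT vehicle arrays, and 2.03 to 2.90 in the 6 arrays at 0 h. All 12 arrays without LPS thus lay under the nonspecific level, and all 6 with LPS lay well above it. Il1a rose by 9.03 ± 0.36 (log2 ± SE, n = 3 arrays each) in KO cells, at least 237-fold (adjusted p = 1.41e-11), and by 7.30 ± 0.36 in WT cells, at least 61.7-fold (adjusted p = 2.46e-10). These lower bounds set the vehicle arrays at their nonspecific level.

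Il1b, the gene of the main secreted IL-1 of activated macrophages, was already detected after vehicle. It read 12.92, 13.04 and 12.98 in KO LPS arrays and 12.35, 12.02 and 12.50 in WT LPS arrays, against 5.23, 4.96 and 5.57 in KO vehicle arrays and 5.35, 4.92 and 5.70 in WT vehicle arrays. The LPS arrays did not overlap the vehicle arrays in either genotype, and the 6 vehicle arrays were all above the nonspecific level. Il1b rose 213-fold in KO cells (7.73 ± 0.37, adjusted p = 1.55e-10) and 125-fold in WT cells (6.97 ± 0.37, adjusted p = 6.77e-10).

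Il18 was the only ligand gene above the nonspecific level in all 18 arrays. It read 11.33, 11.20 and 11.62 in KO LPS arrays and 10.07, 9.69 and 10.40 in WT LPS arrays, against 7.06, 6.84 and 7.23 in KO vehicle arrays and 7.15, 6.97 and 7.08 in WT vehicle arrays. Every KO LPS array was above every WT LPS array, while the vehicle arrays of the genotypes overlapped. Il18 rose 20.2-fold in KO cells (4.34 ± 0.16, adjusted p = 1.11e-11) and 7.9-fold in WT cells (2.98 ± 0.16, adjusted p = 9.61e-10). Il33 lay between 2.64 and 3.33 in the 18 arrays, under the nonspecific level in each, and no fold is given for it.

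The antagonist Il1rn rose beside the ligands it opposes. Its brightest probe set read 11.88, 11.27 and 12.02 in KO LPS arrays and 12.35, 11.61 and 11.64 in WT LPS arrays, against 5.44, 5.17 and 5.58 in KO vehicle arrays and 6.08, 5.95 and 6.15 in WT vehicle arrays. The KO and WT arrays overlapped after LPS, and after vehicle the 3 KO arrays were the lower ones. Il1rn rose 80.3-fold in KO cells (6.33 ± 0.25, adjusted p = 1.5e-11) and 55.9-fold in WT cells (5.81 ± 0.25, adjusted p = 7.01e-11). All 3 of its probe sets rose in each genotype, by 5.12, 5.69 and 6.33 in KO cells and by 5.05, 5.73 and 5.81 in WT cells (log2).

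Il18bp, the gene of the IL-18 binding protein, rose least of the 5 genes called in both genotypes. It read 7.04, 6.81 and 7.08 in KO LPS arrays and 8.94, 7.38 and 6.64 in WT LPS arrays, against 6.22, 5.76 and 4.68 in KO vehicle arrays and 6.25, 6.06 and 5.83 in WT vehicle arrays. The WT LPS arrays were spread over more than the whole KO LPS range, with array 1 highest, yet did not overlap the WT vehicle arrays. Il18bp rose 2.68-fold in KO cells (1.42 ± 0.44, adjusted p = 0.0179) and 3.05-fold in WT cells (1.61 ± 0.44, adjusted p = 0.00904). Without KO replicate 3, which had the lowest vehicle value, the difference in KO cells was 0.94 (adjusted p = 0.208), and without KO replicate 2 it was 1.61 (adjusted p = 0.061). Without WT replicate 1, which had the highest LPS value, the difference in WT cells was 1.06 (adjusted p = 0.0625). The call also ended with the deposited values as they are, in KO cells (1.14, adjusted p = 0.0988) and in WT cells (0.94, adjusted p = 0.133), in KO cells with the same median per array (adjusted p = 0.0553), and in WT cells with equal hybridisation controls (adjusted p = 0.0798) or only the groups compared (adjusted p = 0.061).

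The receptors moved little. Il1r1, the signalling receptor, read 3.34, 3.24 and 3.59 in KO LPS arrays and 4.01, 4.79 and 4.46 in WT LPS arrays, against 3.30, 3.26 and 3.04 in KO vehicle arrays and 3.37, 3.60 and 3.41 in WT vehicle arrays. Of all 18 arrays, only WT LPS arrays 2 and 3 lay above the nonspecific level. Il1r1 rose in WT cells by 0.96 ± 0.18 (adjusted p = 0.000441), at least 1.44-fold, and both KO groups lay under the level (0.19 ± 0.18, adjusted p = 0.474). The WT call ended with the deposited values as they are (0.56, adjusted p = 0.0506) and with arrays scaled to equal hybridisation controls (0.58, adjusted p = 0.143).

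The decoy receptor gene Il1r2 read 3.39, 3.48 and 3.53 in KO LPS arrays and 4.66, 4.29 and 3.46 in WT LPS arrays, against 4.60, 3.91 and 3.75 in KO vehicle arrays and 5.04, 4.13 and 4.35 in WT vehicle arrays. Its arrays lay near or under the nonspecific level in every group, and the LPS difference did not pass in KO cells (-0.63 ± 0.32, adjusted p = 0.149) or in WT cells (-0.37 ± 0.32, adjusted p = 0.441). In KO cells all LPS arrays nevertheless lay below all vehicle arrays. The WT difference passed as lower in 1 of 18 alternatives (adjusted p = 0.0429).

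The co-receptor gene Il1rap was above the nonspecific level in all 18 arrays on its brightest probe set. That probe set read 6.65, 6.25 and 6.65 in KO LPS arrays and 7.03, 6.57 and 6.62 in WT LPS arrays, against 6.59, 6.49 and 6.70 in KO vehicle arrays and 6.04, 6.17 and 5.67 in WT vehicle arrays. It rose 1.72-fold in WT cells (0.78 ± 0.16, adjusted p = 0.000908), and in KO cells the difference was -0.08 ± 0.16 (adjusted p = 0.769). The WT vehicle arrays were the lowest of the 18. None of the other 4 Il1rap probe sets passed in either genotype, with differences of 0.08 to 0.45 in KO cells and 0.22 to 0.31 in WT cells (log2), and 2 of these 4 lay under the nonspecific level, so the probe sets of this gene disagree. The WT call ended with the same median per array (0.42, adjusted p = 0.123), with the deposited values (0.03, adjusted p = 0.919) and with equal hybridisation controls (0.05, adjusted p = 0.924).

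**Figure D2:**
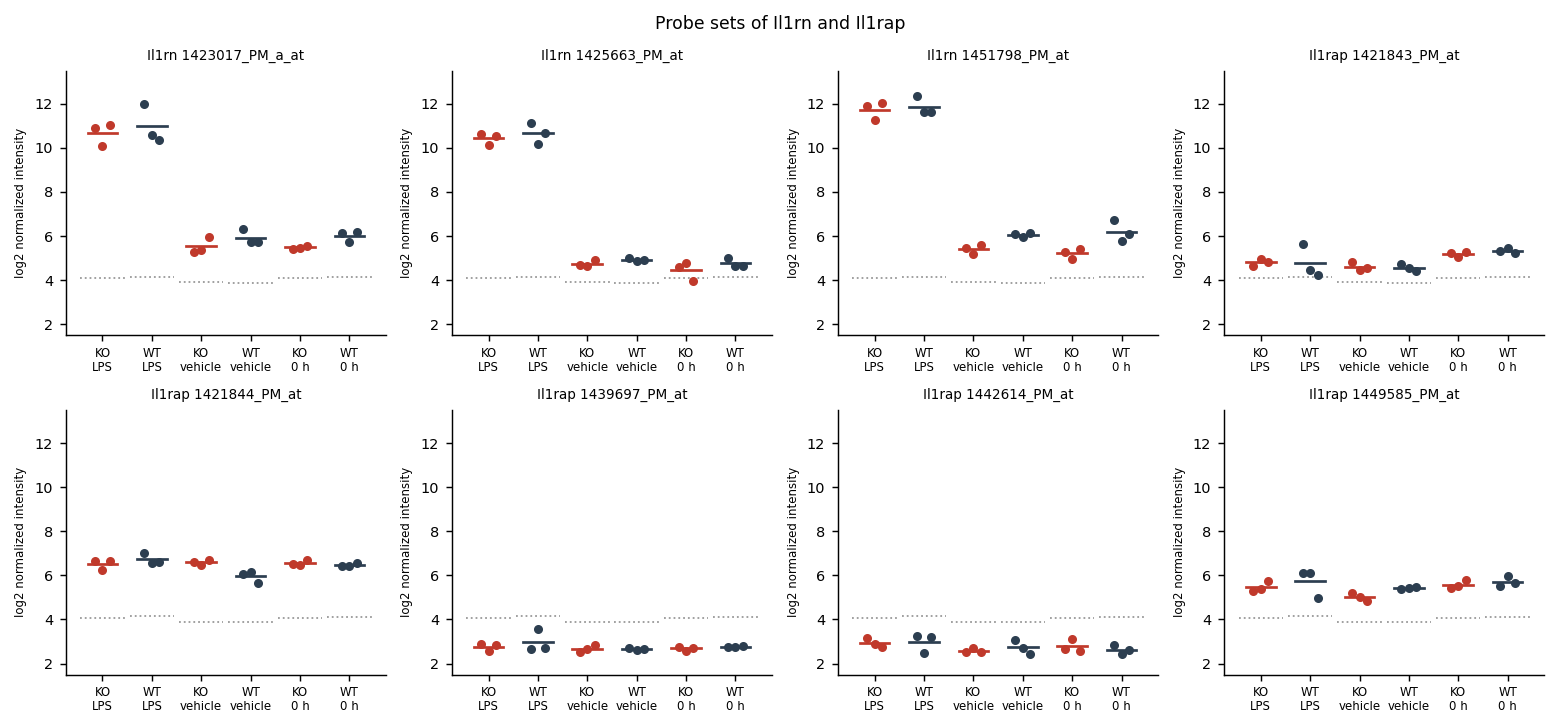
Log2 normalized intensity of the 3 probe sets of Il1rn and the 5 of Il1rap (y axis) in the 18 arrays by group (x axis), with KO in red and WT in dark blue, group means as bars (n = 3) and the mean nonspecific level of each group dotted. The Il1rn probe sets share the rise with LPS, and on the brightest Il1rap probe set the 3 WT vehicle arrays lie below the other 15.

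Some technical and cell type measures moved with LPS. The log2 signal at the 5′ end of the Gapdh control transcript, less that at its 3′ end, was -0.556 to -0.392 in KO LPS and -0.746 to -0.066 in WT LPS arrays, against -0.315 to -0.136 in KO vehicle and -0.249 to -0.067 in WT vehicle arrays. Of 8 neutrophil markers measured, S100a8 and Camp were brighter in the LPS arrays. The summed intensity of the 8 was 437 to 617 in KO LPS and 507 to 846 in WT LPS arrays, against 87.7 to 93.7 in KO vehicle and 82.4 to 117 in WT vehicle arrays. Summed macrophage markers were 24800 to 26100 in KO LPS and 29000 to 30600 in WT LPS arrays, against 25200 to 25900 in KO vehicle and 25900 to 26000 in WT vehicle arrays. These markers did not move together. Of the 8, 2 rose and 4 fell past the threshold in KO cells, against 34.5% of all genes in either direction. In WT cells 2 rose and 3 fell, against 32.3%. Their median log2 difference was -0.37 in KO and -0.14 in WT cells. Summed dendritic cell markers were 213 to 257 in KO LPS and 97.6 to 257 in WT LPS arrays, against 87.3 to 120 in KO vehicle and 91.6 to 116 in WT vehicle arrays. The granule and receptor genes Elane, Mpo, Ltf and Cxcr2, and also S100a9, lay above the nonspecific level in no array. The part of these measures in the LPS responses was not tested, and in bulk RNA more cells of a type and more RNA per cell cannot be told apart.

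To set each ligand against its inhibitor, the difference of their log2 values was taken within each array. This quantity is not a ratio of molecules, since probe sets differ in brightness, but its change between groups can be compared. Il1b minus Il1rn was 1.04, 1.77 and 0.96 in KO LPS arrays and 0.00, 0.41 and 0.86 in WT LPS arrays, against -0.21, -0.21 and -0.01 in KO vehicle arrays and -0.73, -1.03 and -0.46 in WT vehicle arrays. All LPS arrays lay above the vehicle arrays of their genotype, and the change was 1.41 in KO and 1.16 in WT cells (two-sided exact permutation test within genotypes, p = 0.005, the smallest of its 400 arrangements, and 0.01 after Benjamini-Hochberg adjustment over 4 pairs). Il1b thus rose more than Il1rn on this scale. Il1a minus Il1rn changed by 2.70 in KO and 1.49 in WT cells (exact p = 0.005, adjusted 0.01). With values raised to the nonspecific level this mean change of 2.10 became 0.85 (exact p = 0.065), so the call rests on Il1a readings under that level.

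Il18 minus Il18bp averaged 4.40 ± 0.12 in KO LPS and 2.40 ± 1.32 in WT LPS arrays, against 1.49 ± 0.92 in KO vehicle and 1.02 ± 0.20 in WT vehicle arrays (SD, n = 3). It changed by 2.91 in KO and 1.37 in WT cells (mean change 2.14, exact p = 0.01, adjusted 0.01). In KO cells all LPS arrays lay above the vehicle arrays, while in WT cells LPS array 1 (1.13) lay below vehicle array 3 (1.25). At 0 h Il18 minus Il18bp stood at 3.16 ± 0.20 in KO and 2.73 ± 0.28 in WT cells. The WT LPS arrays, at 1.13, 2.32 and 3.75, spanned the range of the WT 0 h arrays. Il1r1 minus Il1r2 changed by 0.81 in KO and 1.32 in WT cells (exact p = 0.01, adjusted 0.01), between genes that mostly lay near or under the nonspecific level. With values raised to that level its mean change of 1.07 became 0.57 (exact p = 0.05). In WT cells LPS array 1 of this pair (-0.655) lay below vehicle array 2 (-0.526).

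**Figure D3:**
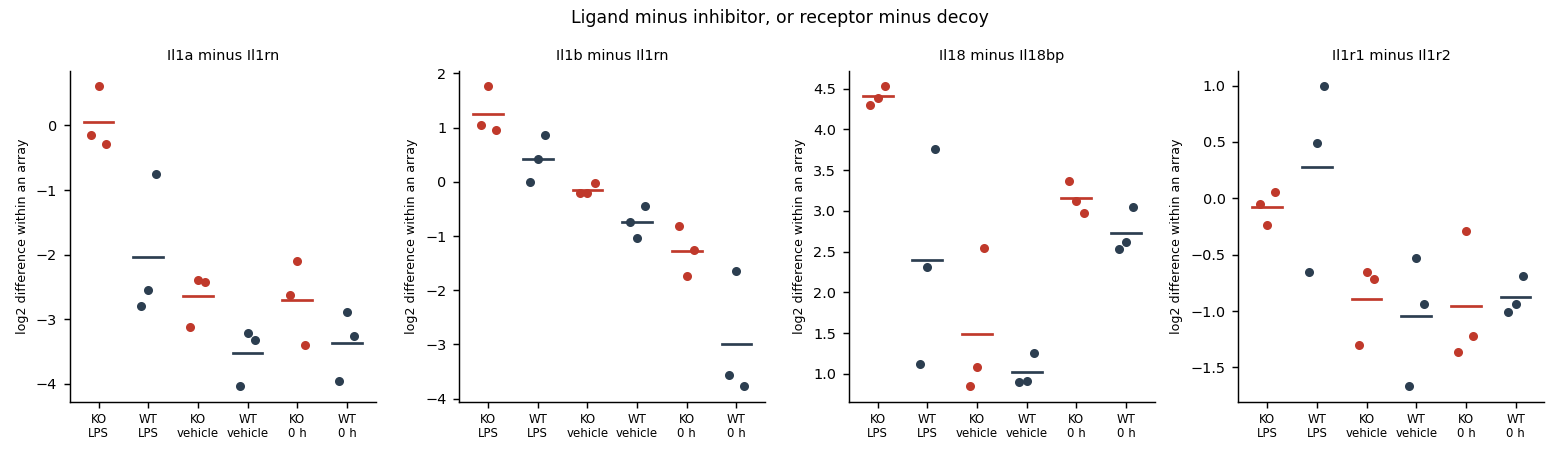
Difference of log2 normalized intensity within an array (y axis, a separate scale per panel) for 3 ligand and inhibitor pairs and for receptor minus decoy, in the 18 arrays by group (x axis), with KO in red, WT in dark blue and group means as bars (n = 3). KO LPS arrays of Il18 minus Il18bp lie close together around 4.40, while WT LPS arrays are spread widely.

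The next comparison asked whether the LPS response of the family depended on Klf3. Only Il18 passed the test of the difference between the responses, 1 of 9 genes against 1.12% of all genes. Its response was larger in KO cells by 1.35 ± 0.23 (log2 ± SE, 95% interval 0.86 to 1.85, adjusted p = 0.00675), a factor of 2.56. Across the alternatives tried it ranged from 1.22 to 1.99 with adjusted p of 0.00193 to 0.0507, the highest where only the groups compared were fitted. Il1a had a wider difference of 1.73 ± 0.50 that did not pass (interval 0.66 to 2.80, adjusted p = 0.135), with WT LPS array 3 the highest of its group. Without WT replicate 3 it was 2.11 (adjusted p = 0.0227), and it also passed under 5 other treatments of the values.

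For the remaining genes the difference between responses did not pass. It was 0.76 ± 0.53 for Il1b (interval -0.35 to 1.88, adjusted p = 0.612) and 0.52 ± 0.36 for Il1rn (interval -0.23 to 1.27, adjusted p = 0.607). It was -0.86 ± 0.22 for Il1rap on its brightest probe set (adjusted p = 0.084), against -0.229 to 0.141 on its other 4 probe sets, and -0.77 ± 0.25 for Il1r1 (adjusted p = 0.189), which lay above the nonspecific level in 2 of 18 arrays. Il18bp, Il33 and Il1r2 had differences of -0.18, 0.23 and -0.26, with intervals that include 0.

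**Figure D4:**
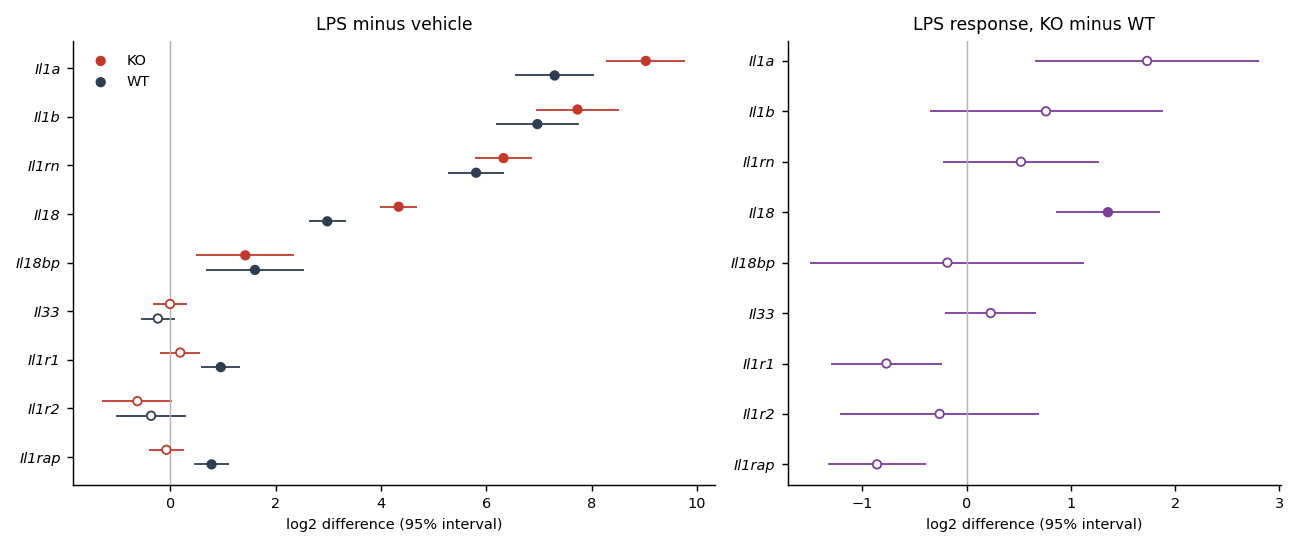
Left, LPS minus vehicle log2 difference (x axis) of the 9 genes (y axis) in KO (red) and WT (dark blue) cells. Right, the KO minus WT difference of those responses. Points are limma estimates (n = 3 arrays per group), lines are 95% intervals, and filled points passed an adjusted p of 0.05. On the right only Il18 is filled.

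Compared directly after LPS, KO cells had more Il1a and Il18 RNA and less Il1r1 RNA than WT cells, 3 of 9 genes past the threshold against 5.96% of all genes. Il18 was 2.52-fold higher (1.33 ± 0.16, adjusted p = 0.000142) and Il1a 3.84-fold higher (1.94 ± 0.36, adjusted p = 0.00344), each with all 3 KO arrays above all 3 WT arrays. Il1r1 was at least 1.27-fold lower in KO cells (-1.03 ± 0.18, adjusted p = 0.00217), and its KO arrays were all under the nonspecific level. Il1b had all 3 KO arrays above the WT arrays too, but the difference of 0.69 ± 0.37 did not pass (interval -0.10 to 1.48, adjusted p = 0.341). With values raised to the nonspecific level Il1b did pass (0.69 ± 0.19, adjusted p = 0.0302).

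Il1rn differed between KO and WT cells after LPS by -0.14 ± 0.25 (interval -0.68 to 0.39, adjusted p = 0.822), Il18bp by -0.68 ± 0.44 (adjusted p = 0.447), Il1r2 by -0.67 ± 0.32 (adjusted p = 0.26) and Il1rap by -0.23 ± 0.16 (adjusted p = 0.489). A fit on these 6 arrays alone called none of the 9 genes (adjusted p = 0.0556 for Il18, 0.108 for Il1a and 0.11 for Il1r1), with the same differences. The Il1r1 call also ended with 2 other scalings, the deposited values as they are (-0.71, adjusted p = 0.057) and equal hybridisation controls (-0.67, adjusted p = 0.226). The summed macrophage markers were lower in all 3 KO LPS arrays than in the WT LPS arrays. Of these 8 markers, 2 passed as lower in KO cells and 6 did not pass, against 5.96% of all genes in either direction. Cd14 (13.13 in KO LPS and 12.98 in WT LPS arrays) and Mertk (9.08 and 9.02) averaged higher in KO cells. The neutrophil marker S100a8 averaged 7.49 in KO LPS and 8.77 in WT LPS arrays (log2). It was the 1 of 8 such markers that passed between them, against 5.96% of all genes. The neutrophil marker Camp went the other way without passing, at 8.12 in KO LPS and 7.63 in WT LPS arrays. Of 5 dendritic cell markers measured, Itgax, which macrophages also express, lay above the nonspecific level and the other 4 did so in no array. The part of these markers in the genotype differences was not tested.

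Without LPS, the genotypes did not differ past the threshold in any of the 9 genes. After vehicle 0% of all genes passed, with 777 of 17097 genes and 2 of the 9 at an unadjusted p under 0.05 (limma), and at 0 h 0.14% of all genes passed, with 1059 genes and 1 of the 9 at an unadjusted p under 0.05. The 2 after vehicle were Il1rap, which was 0.63 ± 0.16 higher in KO arrays (adjusted p = 0.413), and Il1rn (-0.67 ± 0.25, adjusted p = 0.936). At 0 h Il1rn read 5.26, 4.95 and 5.42 in KO arrays, against 6.70, 5.78 and 6.07 in WT arrays, a difference of -0.98 ± 0.25 (interval -1.51 to -0.45, adjusted p = 0.222). On this brightest Il1rn probe set the KO arrays were thus below the WT arrays in both conditions without LPS, in comparisons that did not pass, while the other 2 probe sets overlapped after vehicle and 1 of them at 0 h too. Il18 differed by -0.02 ± 0.16 after vehicle and 0.14 ± 0.16 at 0 h, and Il1a was under the nonspecific level in all of these arrays.

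**Figure D5:**
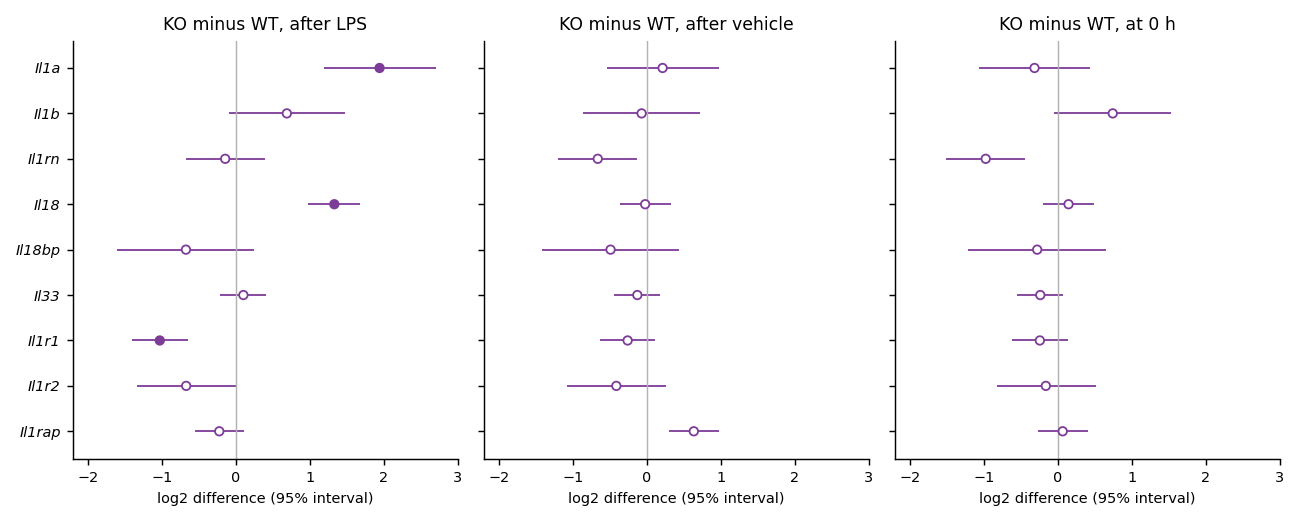
KO minus WT log2 difference (x axis) of the 9 genes (y axis) after LPS, after vehicle and at 0 h, as limma estimates with 95% intervals (n = 3 arrays per group), filled where the adjusted p was under 0.05. Filled points appear after LPS alone, for Il1a, Il18 and Il1r1.

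The last comparisons asked what 8 h in vehicle and fresh medium without L929 products did to the family. Il1b rose and Il18 fell in both genotypes. In KO cells 2 of 9 genes passed, against 12.6% of all genes, and in WT cells 3 of 9, against 14.2%. Il1b read 5.23, 4.96 and 5.57 in KO vehicle arrays and 4.44, 3.20 and 4.15 in KO 0 h arrays, a 2.49-fold rise (1.32 ± 0.37, adjusted p = 0.0276). The nonspecific levels of these KO 0 h arrays were 4.22, 3.94 and 4.07. Array 2 thus lay under its level and arrays 1 and 3 just above theirs, so this fold is uncertain. In WT cells Il1b read 5.35, 4.92 and 5.70 after vehicle, against 3.15, 4.13 and 2.30 at 0 h, which lay under the nonspecific level (at least 2.29-fold, 2.13 ± 0.37, adjusted p = 0.00105). The groups did not overlap in either genotype. The Il1b call in KO cells ended when any KO replicate or WT replicate 1 was left out, with differences of 1.10 to 1.59 (adjusted p = 0.0529 to 0.17). The log2 Gapdh signal, 5′ end less 3′ end, was 0.01 to 0.148 in KO and 0.098 to 0.131 in WT arrays at 0 h. After vehicle it was -0.315 to -0.136 in KO and -0.249 to -0.067 in WT arrays, without overlap. The part of this measure in the vehicle changes was not tested.

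Il18 read 7.06, 6.84 and 7.23 in KO vehicle arrays, against 8.01, 7.76 and 7.98 in KO 0 h arrays, and 7.15, 6.97 and 7.08 in WT vehicle arrays, against 7.74, 7.88 and 7.71 in WT 0 h arrays. It was 1.83-fold lower after vehicle in KO cells (-0.87 ± 0.16, adjusted p = 0.00208) and 1.63-fold lower in WT cells (-0.71 ± 0.16, adjusted p = 0.00787), with no overlap. The call ended in KO cells without KO replicate 1 (-0.83, adjusted p = 0.0515), and in WT cells without WT replicate 2 (-0.60, adjusted p = 0.0546) and with equal hybridisation controls (-0.87, adjusted p = 0.13). Il1rap fell in WT cells by 0.53 on the log2 scale (SE 0.16, adjusted p = 0.0336), on its brightest probe set, and another of its probe sets had a difference of -0.77 that did not pass over all probe sets (adjusted p = 0.0605). That call ended without any of the WT replicates, without KO replicate 1, with equal hybridisation controls and with the mean of the probe sets (-0.66 to -0.32, adjusted p = 0.0539 to 0.357). The difference between genotypes in the vehicle response passed for 0% of all genes and for none of the 9, with 629 genes and 1 of the 9, Il1rap (0.57 ± 0.22, adjusted p = 0.999), at an unadjusted p under 0.05 (limma). Since vehicle cells are the baseline of the LPS comparison, they share arrays with it. Over the 3 conditions Il18 was thus lowest after vehicle, and its order in KO and in WT cells was 0 h above vehicle and LPS above both, each step larger than the spread of its arrays.

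The genes whose pattern over the 18 arrays was most like each responding member were found by the root mean square difference of their log2 values, each centred on its mean. For Il1a these were Il6 (0.519), Ptgs2 (0.553) and Il12b (0.679), where the median over all genes was 3.92. For Il18 they were Hivep3 (0.279), Adhfe1 (0.378) and St3gal6 (0.391), with a median of 1.66 over all genes. Those nearest to Il1b were Saa3 (0.853), Mmp14 (0.892) and Ccl5 (0.925), and those nearest to Il1rn were Oasl1 (0.414), Gpr84 (0.488) and Gm9706 (0.534). Il18bp was nearest to 1600014C10Rik (0.423). The lists of Il1a, Il1b, Il1rn and Il18 shared no gene.

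Other ligands and receptors of the IL-1 family were measured for 11 of 16 listed symbols. With LPS 3 rose and 1 fell in KO cells, against 34.5% of all genes in either direction, and 2 rose and 2 fell in WT cells, against 32.3%, which is near the share of all genes. The medians were 0.16 in KO and 0.31 in WT cells, where those of all genes were -0.034 and -0.007. Il1f9 and Il1f6, the genes of IL-36 gamma and IL-36 alpha, rose in both genotypes. Il1f9 averaged 9.52 in KO LPS and 9.51 in WT LPS arrays, against 3.69 in KO vehicle and 3.36 in WT vehicle arrays, and Il1f6 averaged 8.01 in KO LPS and 8.33 in WT LPS arrays, against 3.37 in KO vehicle and 3.58 in WT vehicle arrays. Sigirr, an inhibitory receptor of the family, fell at least 3.91-fold in KO cells (adjusted p = 4.58e-06), where all LPS arrays lay under the nonspecific level, and 4.93-fold in WT cells (adjusted p = 0.000124), where 1 LPS array lay above it. The IL-36 receptor gene Il1rl2 rose in KO cells by 1.17 ± 0.24, at least 1.41-fold (adjusted p = 0.00107), and lay under the nonspecific level in WT cells. Il1f5, the gene of the IL-36 receptor antagonist, was called lower in WT cells (-0.58 ± 0.17, adjusted p = 0.0146) but lay under that level in all 18 arrays, and its sign turned when values were raised to it. None of the 11 passed the test of the difference between responses, where 1.12% of all genes did. None passed between KO and WT cells after LPS, where 5.96% of all genes did.

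Genes for processing and release of IL-1 were measured for 13 of 20 symbols, with 5 higher and 4 lower after LPS in KO cells and 6 higher and 4 lower in WT cells, beside 34.5% and 32.3% of all genes called in either direction (list medians 0.06 in KO and 0.23 in WT cells, all genes -0.034 and -0.007). The sensor gene Nlrp3 rose by 2.71 ± 0.16 in KO and 2.01 ± 0.16 in WT cells, Casp4, the gene of caspase-11, by 2.62 ± 0.19 in KO and 2.57 ± 0.19 in WT cells, and Casp1 by 1.44 ± 0.15 in KO and 1.60 ± 0.15 in WT cells. Mefv, the gene of pyrin, rose by 3.79 ± 0.23 in KO and 5.05 ± 0.23 in WT cells. It lay above the nonspecific level in only 1 vehicle array of each genotype. Across the alternatives its rise was 2.80 to 3.87 in KO and 3.90 to 5.26 in WT cells. P2rx7, the ATP-gated channel that triggers NLRP3, fell by 1.63 in KO cells and by 1.39 in WT cells. Pycard, the gene of the inflammasome adaptor ASC, fell in KO cells. It averaged 8.81 ± 0.19 in KO LPS and 10.16 ± 0.32 in WT LPS arrays, against 9.71 ± 0.20 in KO vehicle and 9.69 ± 0.06 in WT vehicle arrays (SD, n = 3). It fell in KO cells by 0.90 on the log2 scale (adjusted p = 0.000147). In WT cells it was 0.46 ± 0.15 higher (adjusted p = 0.0238), a call that ended in 7 of 18 alternatives, among them the deposited values (0.11, adjusted p = 0.678), equal hybridisation controls (0.12, adjusted p = 0.778) and each WT replicate left out. The difference between the responses was -1.36 ± 0.21 (adjusted p = 0.00355), the 1 of 13 genes of this list that passed, against 1.12% of all genes. After LPS Pycard was 2.54-fold lower in KO than in WT cells (adjusted p = 5.94e-05) and Mefv 2.13-fold lower (adjusted p = 0.0102). These were the 2 of 13 genes of this list that passed there, against 5.96% of all genes. The Pycard difference between responses was -0.96 with the deposited values (adjusted p = 0.079) and -0.95 with equal hybridisation controls (adjusted p = 0.354). The Mefv call ended without WT replicate 2 or KO replicate 2, with the deposited values (-0.83), with equal hybridisation controls (-0.78) and with only the groups compared (adjusted p = 0.0528 to 0.171).

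The signalling chain behind the receptors was measured for 15 of 18 symbols, with 7 higher and 2 lower in KO cells and 8 higher and 3 lower in WT cells after LPS, again beside 34.5% and 32.3% of all genes (list medians 0.24 in KO and 0.32 in WT cells). Irak3, the inhibitory member of the IRAK family, rose by 3.08 ± 0.19 in KO and 3.04 ± 0.19 in WT cells. The kinase gene Irak2 rose by 1.26 ± 0.12 in KO and 1.08 ± 0.12 in WT cells, and the kinase gene Map3k8 by 1.09 ± 0.19 in KO and 1.06 ± 0.19 in WT cells. The ubiquitin ligase gene Peli1 rose by 1.45 ± 0.16 in KO and 0.87 ± 0.16 in WT cells, and the adaptor gene Myd88 by 1.00 ± 0.12 in KO and 1.20 ± 0.12 in WT cells. In WT cells the calls ended with the deposited values and with equal hybridisation controls for Map3k8 (0.38 and 0.40, adjusted p = 0.265 and 0.368) and for Peli1 (0.45 and 0.47, adjusted p = 0.181 and 0.266), and with equal hybridisation controls for Irak2 (0.65, adjusted p = 0.0981). None of the 15 passed the test of the difference between responses, where 1.12% of all genes did. After LPS Ikbkb (0.62 ± 0.13, adjusted p = 0.00674) and Irak2 (0.50 ± 0.12, adjusted p = 0.0188) were higher in KO than in WT cells, 2 of 15 against 5.96% of all genes. The Ikbkb call ended without KO replicate 2 or 3 (adjusted p = 0.0692 and 0.0523), with the mean of its probe sets (0.33, adjusted p = 0.0887) and with only the groups compared (adjusted p = 0.219). The Irak2 call ended without any replicate but WT replicate 1, under 2 other scalings and with only the groups compared (adjusted p = 0.0579 to 0.285).

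All 10 listed genes that IL-1 and TLR signals induce rose with LPS in both genotypes. Of all genes, 13.9% were higher in KO and 13.7% in WT cells. The list was drawn up as inducible genes, with earlier results of these data known. Neither this count nor the counts between genotypes below are therefore independent results. The median responses were 4.50 in KO and 3.22 in WT cells, where those of all genes were -0.034 and -0.007. Of these responses, 3 were larger in KO cells, where 1.12% of all genes differed in either direction, namely those of Il6 (2.69 ± 0.53, adjusted p = 0.0182), Csf3 (2.69 ± 0.44, adjusted p = 0.00506) and Nfkbiz, the gene of the NF-kB cofactor IκBζ (1.39 ± 0.30, adjusted p = 0.028). Il6 averaged 12.47 ± 0.07 in KO LPS and 9.47 ± 1.19 in WT LPS arrays (SD, n = 3) and lay under the nonspecific level in all vehicle arrays. Compared after LPS, 5 of the 10 were higher in KO cells, against 5.96% of all genes in either direction, among them Il6 (3.00 ± 0.38), Csf3 (2.52 ± 0.31), Ptgs2 (1.88 ± 0.48) and Nfkbiz (0.91 ± 0.21). Leaving out single replicates ended the difference between responses for Il6 (without WT replicate 1 or any KO replicate, adjusted p = 0.0658 to 0.148), for Nfkbiz (all but KO replicate 3, adjusted p = 0.0568 to 0.141) and for Csf3 (KO replicate 3, adjusted p = 0.0597). The Ptgs2 call after LPS ended without WT replicate 2 or any KO replicate (adjusted p = 0.0561 to 0.14), and the Nfkbiz call without replicate 2 of WT (adjusted p = 0.097) or of KO (adjusted p = 0.077). With only the groups compared none of these 4 passed after LPS (adjusted p = 0.0556 to 0.125), nor did the differences between responses of Il6 (0.11) and Nfkbiz (0.0965). Cxcl1, a neutrophil-attracting chemokine gene, rose by 6.84 ± 0.49 in KO and 5.27 ± 0.49 in WT cells, on the log2 scale. Lcn2, an iron-withholding protein gene that lay under the nonspecific level in all vehicle arrays, rose at least 173-fold in KO and at least 319-fold in WT cells. Neither difference between responses passed (adjusted p = 0.359 for Cxcl1 and 0.193 for Lcn2), although that of Lcn2 did with log2(value + 16) (-0.93, adjusted p = 0.0441). LPS induces these genes through TLR4 as well, and the share that runs through IL-1 receptors was not tested.

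In the 4 lists no gene passed between KO and WT cells after vehicle or at 0 h, where 0% and 0.14% of all genes did. From 0 h to vehicle, 7 of 15 signalling genes rose and 1 fell in KO cells, and 6 rose and 1 fell in WT cells. Of 13 processing genes 1 rose and 4 fell in each genotype. Of 11 other family genes 1 rose in KO and 1 fell in WT cells, and of 10 inducible genes 1 rose in KO and 2 in WT cells. Of all genes, 12.6% passed in KO and 14.2% in WT cells, in either direction. Between vehicle and 0 h, Irak2 rose in both genotypes, by 1.00 ± 0.12 in KO and 0.64 ± 0.12 in WT cells, but under each of the 3 other scalings neither call held (0.59 to 0.63 in KO and 0.32 to 0.42 in WT cells, adjusted p = 0.0519 to 0.754). Nfkbia, the gene of the NF-kB inhibitor IκBα, rose by 1.09 ± 0.13 in KO and 1.21 ± 0.13 in WT cells. Its calls ended with equal hybridisation controls in KO (0.66, adjusted p = 0.251) and in WT cells (0.93, adjusted p = 0.0554), and in KO cells with the deposited values (0.63, adjusted p = 0.0586). Serpinb1a, the gene of an inhibitor of neutrophil proteases and caspases, fell by 2.33 in KO cells, at least 2.88-fold, and by 1.70 in WT cells, at least 1.59-fold. Gsdme of the processing list also fell (-1.45 in KO and -1.64 in WT cells), as did Capn2 (-0.81 in KO and -1.03 in WT cells). The Gsdme and Capn2 calls held in all 18 alternatives in both genotypes. Pycard fell by 1.05 in KO and by 0.81 in WT cells (adjusted p = 0.00025 and 0.00152), and in WT cells the highest adjusted p under the alternatives was 0.0504.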

How the data were processed

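RNA of 18 samples, 3 in each of 6 groups, was measured on an Affymetrix HT MG-430PM array plate labelled with a 3′ IVT kit. The authors deposited linear intensity, 1 value per probe set and array, for which the submitters' processing notes name Partek. Not given in the sources used here were its version, background correction and scaling. The median intensity of the arrays ran from 11.4 to 18.6, so the log2 was taken and arrays were quantile-normalized. Control probe sets (104) were left out, 28898 of 45037 others had 1 gene symbol, 551 several and 15588 none listed. Each of 17097 genes was read by its brightest probe set on average.

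With limma 3.58.1 (R 4.3.3), all 18 arrays were fitted by a model holding the 6 group means, and contrasts were tested with empirical Bayes moderation. Two-sided p-values were adjusted by Benjamini-Hochberg over the 17097 genes of a comparison, with a threshold of 0.05. Within-array differences were tested by an exact permutation of arrays within genotypes, on the mean of the KO and WT changes. The fit was tested on simulated data. For arrays, their number per group limits the precision, and depth does not apply. The nonspecific level was percentile 95 of the 23 nonspecific controls of each array, carried to the normalized scale. A fold is "at least" where the dimmer group did not exceed that level on any array, and none is given where neither group exceeded it.

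The members, the gene lists, the nonspecific level and the tests were chosen with earlier results of these data known. Counts of called genes in the lists are therefore not independent results. All 9 members are named. Genes of the pathway lists were drawn from up to 4 called genes per list and comparison with the largest differences, and not all of these are named. The 3 genes most like a member are given for Il1a, Il1b, Il1rn and Il18. For Il18bp only the nearest is given, and for Il1r1 and Il1rap none. Further genes named beside them were chosen after their values were seen. The alternatives were 3 other scalings, values raised to the nonspecific level, log2(value + 16), leaving out dim genes, testing every probe set, the mean of a gene's probe sets, fitting only the groups compared, a trended robust variance, blocks for plate column and replicate number, and leaving out each replicate number of a genotype with its 3 arrays.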

Additional observations from a re-analysis of the deposited data

Results flagged for a closer look

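The LPS response of Il18 differed between genotypes by 1.35 on the log2 scale (KO minus WT, interaction contrast of limma, adjusted p = 0.00675), with the larger rise in KO cells. The same test of the difference singled out 4 genes of the surrounding pathway. The inducible genes Il6 (2.69, adjusted p = 0.0182), Csf3 (2.69, adjusted p = 0.00506) and Nfkbiz (1.39, adjusted p = 0.028) responded more in KO cells, and the inflammasome adaptor gene Pycard (-1.36, adjusted p = 0.00355) fell in KO cells, while its rise in WT cells was called in 11 of 18 alternatives. Under the 18 alternatives each kept its direction, with ranges of 1.22 to 1.99 for Il18, 1.97 to 3.37 for Il6, 2.15 to 3.07 for Csf3, 1.14 to 2.05 for Nfkbiz and -1.56 to -0.95 for Pycard. The highest adjusted p among them was 0.0507 for Il18, 0.148 for Il6, 0.0597 for Csf3, 0.141 for Nfkbiz and 0.354 for Pycard. The WT LPS arrays, which enter all 5 differences, had the widest spread of the 6 groups.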

How the results depend on the processing

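Of 1440 values of the 9 genes under the alternatives, 1395 kept their direction or stayed uncalled on the same side of the threshold, 32 lost the call, 13 gained it and 0 turned round a called direction. The 5 genes called with LPS in KO cells were 5 with the replicate block, and the block changed no call of the 9 genes in any comparison. Pairing of the samples by replicate number was not clear, and 3 arrays per group cannot settle it. The correlation of deviations from the group means was -0.046 to 0.144 over 12 pairs within genotypes, with 6 of 12 best with their own number. Between genotypes it was -0.084 to 0.11 over 9 pairs, with 3 of 9 best with their own number. In WT cells the 7 genes called with LPS were 4 with equal hybridisation controls, and Il18bp, Il1r1 and Il1rap were lost. The deposited values shifted the median of all genes in WT LPS cells by -0.442 and equal hybridisation controls by -0.428, and with these scalings 743 genes rose and 6702 fell, or 631 and 4881, against 2347 and 3175 reported. With the same median per array the split was 1581 and 3866. In KO cells 2755 rose and 2974 fell with a shared median, 1646 and 3099 without normalization, and 1211 and 2231 with hybridisation controls made equal, against 2374 and 3520.

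The single gene called for a different LPS response became 2 with the same median, deposited values, equal hybridisation controls, values raised to the nonspecific level or dim genes left out, 3 with log2(value + 16), and 0 when only the groups compared were fitted. Leaving out a replicate number gave 1 to 2, with 2 without WT replicate 3. The 3 genes that differed between KO and WT cells after LPS became 0 when only the groups compared were fitted. Between vehicle and 0 h, the 2 genes in KO cells became 0 to 2 without a replicate (0 without KO replicate 1), and the 3 in WT cells 1 to 3 (1 without WT replicate 2) and 1 with equal hybridisation controls. The mean change of Il1a minus Il1rn was 0.85 (exact p = 0.065) with values raised to the nonspecific level and 0.658 (exact p = 0.145) with log2(value + 16), and that of Il1r1 minus Il1r2 was 0.574 (exact p = 0.05) with raised values. Raising values also turned Il1f5 in WT cells with LPS to 0.256 and Il18r1 in KO cells after vehicle to -0.184, both under the nonspecific level in all arrays. Other causes were not tested.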
